A study of Mus musculus with 78 samples.

Results

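The genes described here are 10 transcription factors that are known for their part in zygotic genome activation, the switch by which an embryo starts to transcribe its own genes. They are Nr5a2, Rarg, Nfya, Nfyc, Myc, Mycl, Yy1, Ctcf, Dppa2 and Dppa4, taken by their Entrez identifiers from the gene tables of 4-cell and 8-cell mouse blastomeres. All 10 were listed in both tables, out of 15218 genes at the 4-cell stage, 15342 at the 8-cell stage and 13604 in both. The embryos came from a cross of mice homozygous for the Brainbow cassette with mice homozygous for a tamoxifen-inducible Cre under the CAG promoter, and every embryo was exposed to 4-hydroxytamoxifen for 2 h at the 2-cell stage and then cultured in KSOM medium, so that no untreated embryo and no embryo grown in the oviduct served as a control. Single blastomeres were lysed and sequenced one by one. The labels name 36 blastomeres of 9 embryos at the 4-cell stage, with 12 in lineage A, 12 in lineage B and 12 unresolved, and 31 blastomeres of 4 embryos at the 8-cell stage, with 13, 13 and 5. The 11 blastomeres of a 5-cell and a 6-cell embryo were not used here. The tables hold 24 and 26 columns whose names match no single blastomere in the labels. Each stage was therefore taken as 1 sample, the 2 stages come from different embryos, and no embryo or lineage comparison and no test between stages was made.

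In the mouse, genome activation has its main wave at the 2-cell stage, so the 4-cell and 8-cell blastomeres were sampled after it. The factors reach DNA in different ways. Nr5a2 is an orphan nuclear receptor that can bind sites within nucleosomes, and Rarg is the gamma receptor for retinoic acid, which binds DNA as a dimer with a retinoid X receptor. Nfya and Nfyc are subunits of NF-Y, a trimer in which Nfyb and Nfyc pair through histone folds and Nfya reads the CCAAT box. Myc and Mycl are helix-loop-helix proteins that pair with Max on the E-box. Yy1 and Ctcf are zinc finger proteins that act at promoters and at chromatin loops, Ctcf together with cohesin. Dppa2 and Dppa4 are SAP-domain proteins that form a complex and act upstream of the 2-cell stage programme.

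The promoter windows of RefSeq (GRCm38.p6, the assembly behind mm10) were read for 6 of the factors, 11 windows of 300 bases in all, each running from 250 bases before a start site to 50 after it. The letters that some of these factors bind were looked up in them. The NF-Y box CCAAT or its reverse complement ATTGG was present in 3 of the 11 windows, belonging to Nfyc and Nfya, against 37.4% of all 32851 windows. The window of Nfyc at chr4:120825160-120825459, on the minus strand, held 5 of them, and another Nfyc window at chr4:120815664-120815963 held 3. The YY1 core GCCATNTT or its reverse complement AANATGGC was present in 3 windows, of Nfya, Nfyc and Ctcf, against 6.05% of all windows. Neither the E-box CACGTG, present in 7.15% of all windows, nor the NR5A letters AAGGTCA or TGACCTT, present in 4.72%, was found in the 11 windows. The sites, apart from the 3 boxes of the Nfyc window at chr4:120815664-120815963, are printed because NF-Y and YY1 are themselves among the factors. Each line gives 30 bases 5′ to 3′ on the gene's strand, with the matching letters in capitals, and the position of their first base counted from the start site.
Nfyc box at -247, chr4:120825430-120825459: ccgCCAATggcggagagctcccttccctct
Nfyc box at -99, chr4:120825291-120825320: gggctttctcccATTGGcggaaggcgacgg
Nfyc box at -63, chr4:120825255-120825284: ggctcgctcgtgATTGGtcggcggcgggga
Nfyc box at -25, chr4:120825217-120825246: acctggcaccttATTGGtcacgccggctcc
Nfyc box at 15, chr4:120825178-120825207: ggtgatgaaggaATTGGcggctgtcgggat
Nfya box at -137, chr17:48400700-48400729: gatgagcatctcCCAATggtgctcatttat
Nfyc YY1 core at -185, chr4:120825376-120825405: gctctgccgccGCCATGTTatgtgttcgcc
Nfya YY1 core at 11, chr17:48409726-48409755: tgttcagattcGCCATTTTgcgaggcagcg
Ctcf YY1 core at 11, chr8:105636537-105636566: accgcgccgccGCCATTTTgtgtccgagcc
In Nfya and Ctcf the core lay at the same distance behind the start site and in the same orientation. These are matches of letters, and binding was not measured. Which start site was used in the blastomeres was not measured either.

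Depth was estimated from the steps between low FPKM values (fragments per kilobase of transcript, scaled to the depth of each library). In units of 1000000 fragments, the estimated denominators of the 4-cell blastomeres lay between 6.86 and 16.9, with a median of 13.3, and those of the 8-cell blastomeres between 2.33 and 21.7, with a median of 17.2. A median of 7155 genes per blastomere was above FPKM 1 at the 4-cell stage and 6773 at the 8-cell stage. In 2 blastomeres of each stage the number was under 2/3 of the stage's median, and these are called gene-poor below. S18 and S20 of the 4-cell table had 3009 and 3699 genes, and S57 and S58 of the 8-cell table had 3548 and 4263. The blastomere identity was checked on 8 oocyte and embryo markers, whose summed level had medians of 3858 and 3458 FPKM in the stages. Most of this sum is Dppa3, with medians of 3658 and 3260 FPKM. Of the 8 markers 6 had a median above FPKM 1 at the 4-cell stage and 4 at the 8-cell stage, where the medians of Gdf9, Oosp1 and Tcl1 were 0 and that of Nlrp5 was 0.122 FPKM. The summed level of 6 cumulus or granulosa markers was at most 3.06, that of 5 sperm markers at most 23.3, and the 3 blood markers were listed in neither table. At the 4-cell stage 6 columns, S15 to S20, stood apart in Yy1, and the wider run S13 to S21 held low Dppa2, so several stage differences and correlations are also given without them. These runs were chosen after their values were seen, and what sets them apart was not tested.

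Of the 10 factors, 4 were above FPKM 1 in all 24 blastomeres of the 4-cell stage and in all 26 of the 8-cell stage. These were Nr5a2, Nfyc, Dppa2 and Dppa4. The share of all genes above FPKM 1 in every blastomere was not computed. Genes with medians within 2-fold of Nfyc, Dppa2 or Dppa4 were at 0 in a median of 0 blastomeres at both stages. For genes within 2-fold of Nr5a2 this median was 1 at both, so detection in all blastomeres is common at such levels. Rarg, Myc, Yy1 and Ctcf were above FPKM 1 in most blastomeres of both stages, with Myc the lowest at the 8-cell stage, and Nfya and Mycl in 50% or fewer of each. A 4-cell blastomere held between 5 and 10 of the factors above FPKM 1 and an 8-cell blastomere between 5 and 9, with a median of 8 in both. The blastomeres with the fewest were the gene-poor S18 and S57. Without the gene-poor blastomeres the lowest numbers were 7 and 6, and 7 factors instead of 4 were above FPKM 1 in the whole 4-cell stage, since S18 or S20 held the low values of Rarg, Myc and Ctcf.

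**Figure D1:**
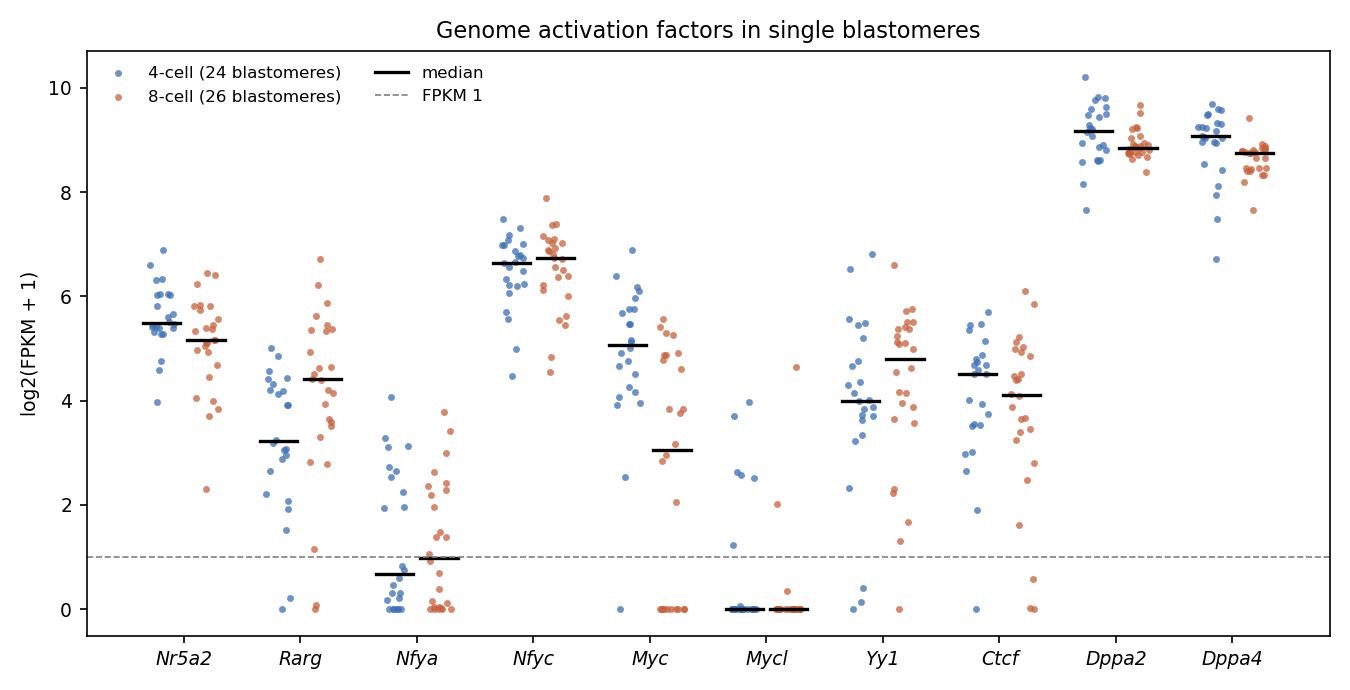
Level of each factor in every blastomere, as log2(FPKM + 1) on the vertical axis, with 24 blastomeres of the 4-cell stage in blue and 26 of the 8-cell stage in orange, a black bar for the median and a dashed line at FPKM 1. Dppa2 and Dppa4 form the top of the plot in both stages, Myc splits into a row at 0 and a cloud above it at the 8-cell stage, and Mycl lies at 0 in most blastomeres.

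By median the order at the 4-cell stage was Dppa2, Dppa4, Nfyc, Nr5a2, Myc, Ctcf, Yy1, Rarg, Nfya and Mycl. In 8-cell blastomeres Yy1, Rarg and Ctcf stood above Myc, in the order Dppa2, Dppa4, Nfyc, Nr5a2, Yy1, Rarg, Ctcf, Myc, Nfya and Mycl. Neighbours in both orders had overlapping ranges. The range of Dppa2 lay wholly above those of Nfyc and of both nuclear receptors at either stage, and the range of Dppa4 lay above those of the nuclear receptors at the 8-cell stage. FPKM values are per length, which is why levels of different genes are set side by side here.

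Between the stages, 1 of the 10 factors had a median at least 2-fold lower at the 8-cell stage, and this was Myc. Over all 13604 genes in both tables the share was 9.67%. Another 1, Rarg, had a median at least 2-fold higher, against 5.17% of all genes. Both shares of the members, 1 of 10, are near these background values at this number of genes. The stage ranges overlapped for all 10 factors, as they did for all other genes in both tables (0% apart). The median of the stage differences was -0.16 on the log2(FPKM+1) scale over the 10 factors and 0 over all genes, of which 5% lay below -1.64 and 5% above 1.02.

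Dppa2 and Dppa4 are neighbours on chromosome 16, transcribed in the same direction, Dppa4 at chr16:48283735-48294292 and Dppa2 at chr16:48310274-48319513, with 15981 bases between them. At the 4-cell stage Dppa2 ran from 201.8 to 1148 FPKM with a median of 578.7, and Dppa4 from 104.3 to 816.5 with a median of 537.2. Only 85 genes of the 4-cell table had a higher median than Dppa2, which ranked 86, and Dppa4 ranked 100. At the 8-cell stage Dppa2 ran from 334.1 to 812.2 FPKM with a median of 460.6, and Dppa4 from 199.6 to 685.6 with a median of 426.2, at ranks 136 and 166. The log2 differences of the medians were -0.33 for each gene, -0.51 and -0.50 for Dppa2 and Dppa4 without the columns S15 to S20, and -0.63 and -0.51 without S13 to S21, and 25 of the 26 blastomeres of the 8-cell stage had less Dppa4 than the 4-cell median.

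The SD of log2(FPKM+1) of Dppa2 was 0.58 over 24 blastomeres of the 4-cell stage and 0.28 over 26 of the 8-cell stage, and that of Dppa4 was 0.72 and 0.33. The 4-cell spread rests in part on low values in the columns S13 to S21, where Dppa2 was at most 489.5 FPKM. Without these 9 columns the 4-cell SD was 0.34 for Dppa2 and 0.30 for Dppa4, the latter no longer above the 8-cell value, and without S15 to S20 it was 0.43 and 0.38. Among the 272 genes of the 4-cell table with medians within 2-fold of Dppa2 the median SD was also 0.58, and among the 332 such genes of the 8-cell table it was 0.44. Over all columns, genes of this level were thus less spread at the 8-cell stage. Their 4-cell SD without S13 to S21 or S15 to S20 was not computed. Of the 332 genes of the 8-cell table, 5.12% had a smaller SD than Dppa2. For Dppa4 the share was 12%, out of 367 genes.

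The complex partners had similar medians, and their ratio varied between blastomeres. The ratio of Dppa2 to Dppa4 had a median of 1.18 at the 4-cell stage, from 0.409 to 3.63, and a median of 1.15 at the 8-cell stage, from 0.637 to 2.42. Dppa2 was the higher of the pair in 16 of 24 and in 20 of 26 blastomeres. Across the blastomeres of the 4-cell stage the genes had a Spearman rho of 0.68, and 99.6% of all gene pairs of that stage had a lower rho. At the 8-cell stage rho was -0.16, and 21.6% of all pairs of the 7528 such genes were lower. The difference between these correlations was not tested. The 4-cell value depended on the scaling, since rho was 0.34 once each blastomere was rescaled to the same sum over the genes in both tables, and Dppa2 and Dppa4 were also correlated with the number of genes above FPKM 1 at that stage, at 0.49 and 0.44. With that number held constant by partial correlation the rho of the pair was 0.60. It was 0.50 without the columns S15 to S20 and 0.24 without S13 to S21.

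**Figure D2:**
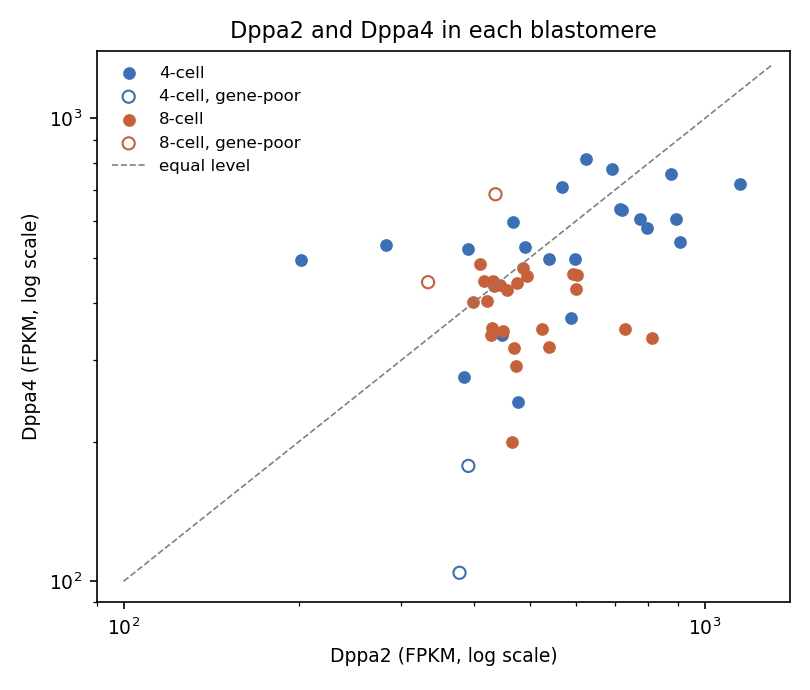
Dppa4 against Dppa2 in each blastomere, both in FPKM on log axes, with the 4-cell stage in blue, the 8-cell stage in orange and open circles for the gene-poor blastomeres. The dashed line marks equal levels, and the 8-cell blastomeres sit in a tighter group than the 4-cell ones.

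Of 7 genes listed with this complex, as genes of the same Dppa name or as targets, 3 had a median above FPKM 1 at both stages. Dppa3, which protects the maternal genome from demethylation, had medians of 3658 and 3260 FPKM, Dppa5a had 1039 and 1285 FPKM, and Tdpoz4 had 42.1 and 26.8 FPKM. Zscan4d, a gene of the 2-cell stage programme, had medians of 0 and highest values of 60.7 and 6.74 FPKM, and was above FPKM 1 in 6 of 24 and 2 of 26 blastomeres. Zfp352 was above it in 5 and 1, with highest values of 51.2 and 10.3 FPKM, and Duxf3 was listed in neither table. None of the 6 listed genes in both tables passed 2-fold between the stages. Over all genes 9.67% were at least 2-fold lower and 5.17% higher, and the count is near that background.

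Nr5a2 lies at chr1:136842562-136960448 on the minus strand. It ran from 14.7 to 117.2 FPKM at the 4-cell stage with a median of 44.0, and from 3.96 to 85.7 FPKM at the 8-cell stage with a median of 34.8. The 2 ranges overlapped, and 18 of 26 blastomeres of the 8-cell stage lay below the 4-cell median. The difference of the log2 medians was -0.33, and it was -0.47 without the columns S15 to S20 and -0.50 without S13 to S21. At the 8-cell stage the consecutive columns S53 to S58 held the lowest values, 3.96 to 20.9 FPKM, and all others were at least 24.7 FPKM. This run was seen in the values, and the difference without it, which would be smaller in size, was not computed. Nr5a2 was even between blastomeres for its level, with an SD of 0.64 at the 4-cell stage, where 5.80% of the 1794 genes with medians within 2-fold had a smaller one, and of 0.93 at the 8-cell stage, where 17.2% of 1931 genes did. Of all the factors it followed the number of genes above FPKM 1 most closely at the 8-cell stage, with a rho of 0.67 over 26 blastomeres, beside 5% to 95% limits of -0.36 to 0.54 over the 7528 genes that were above 0 in 50% or more of the blastomeres. The columns S53 to S58, low in Nr5a2, also had the lowest numbers of genes above FPKM 1 at the 8-cell stage, at most 5391. All other columns of that stage had at least 5884, and the rho without this run was not computed. At the 4-cell stage the rho was 0.43.

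Of the related receptors, Esrrb, an estrogen-related receptor of pluripotent cells, had medians of 3.06 and 8.22 FPKM, a log2 difference of 1.20, and was above FPKM 1 in 17 of 24 and in 22 of 26 blastomeres. Nr5a1, the paralog of Nr5a2 in steroid-making cells, reached at most 0.0435 FPKM at the 4-cell stage and was not listed at the 8-cell stage. The repressive partners Nr0b1 and Nr0b2 were in neither table. Among 9 corepressors and coactivators 4 had a median above FPKM 1 at both stages, with Ncoa3, a coactivator of nuclear receptors, at medians of 29.1 and 43.4 FPKM. None of the 7 in both tables passed 2-fold, where 9.67% of all genes were lower and 5.17% higher.

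Rarg lies at chr15:102234938-102257522 on the minus strand. At the 4-cell stage it ran from 0 to 31.2 FPKM with a median of 8.34, and at the 8-cell stage from 0 to 103.7 FPKM with a median of 20.2. It was above FPKM 1 in 22 of 24 blastomeres (91.7%, exact 95% interval 73.0% to 99.0%) and in 24 of 26 (92.3%, 74.9% to 99.1%). The share of blastomeres was thus nearly the same and the level was not, with 21 of 26 blastomeres of the 8-cell stage above the 4-cell median. The log2 difference of the medians was 1.19, or 2.27-fold, and 96.1% of all genes had a lower difference. It fell under 2-fold without the gene-poor blastomeres (0.88), without the columns named NA (0.92) and as a difference of means (0.90). At the 8-cell stage Rarg also followed the estimated denominator, with a rho of 0.54 over 26 blastomeres against 5% to 95% limits of -0.27 to 0.39 over all genes, and the part of depth in the stage difference was not tested.

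The other retinoid receptors were lower than Rarg at both stages. Rarb, the beta receptor, had a median of 0 FPKM at the 4-cell stage and of 12.5 FPKM at the 8-cell stage, and was above FPKM 1 in 8 of 24 and in 19 of 26 blastomeres. Rxra, a dimer partner of the retinoic acid receptors, had medians of 0.308 and 2.20 FPKM, and Rxrb of 0 and 0.803 FPKM. Rarb and Rxra were the 2 receptors past 2-fold of 4 in both tables, with log2 differences of 3.76 and 1.29, against 5.17% of all genes at least 2-fold higher, and were singled out after their values were seen. Rara stayed at a median of 0 FPKM in both stages. Of 13 genes for making, breaking down or binding retinoids, 3 were in both tables and 1 had a median above FPKM 1. This was Rdh10, which oxidises retinol, at medians of 54.1 and 27.8 FPKM, while the retinal dehydrogenase Aldh1a2 was above FPKM 1 in 1 of 24 blastomeres and was not listed at the 8-cell stage.

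**Figure D3:**
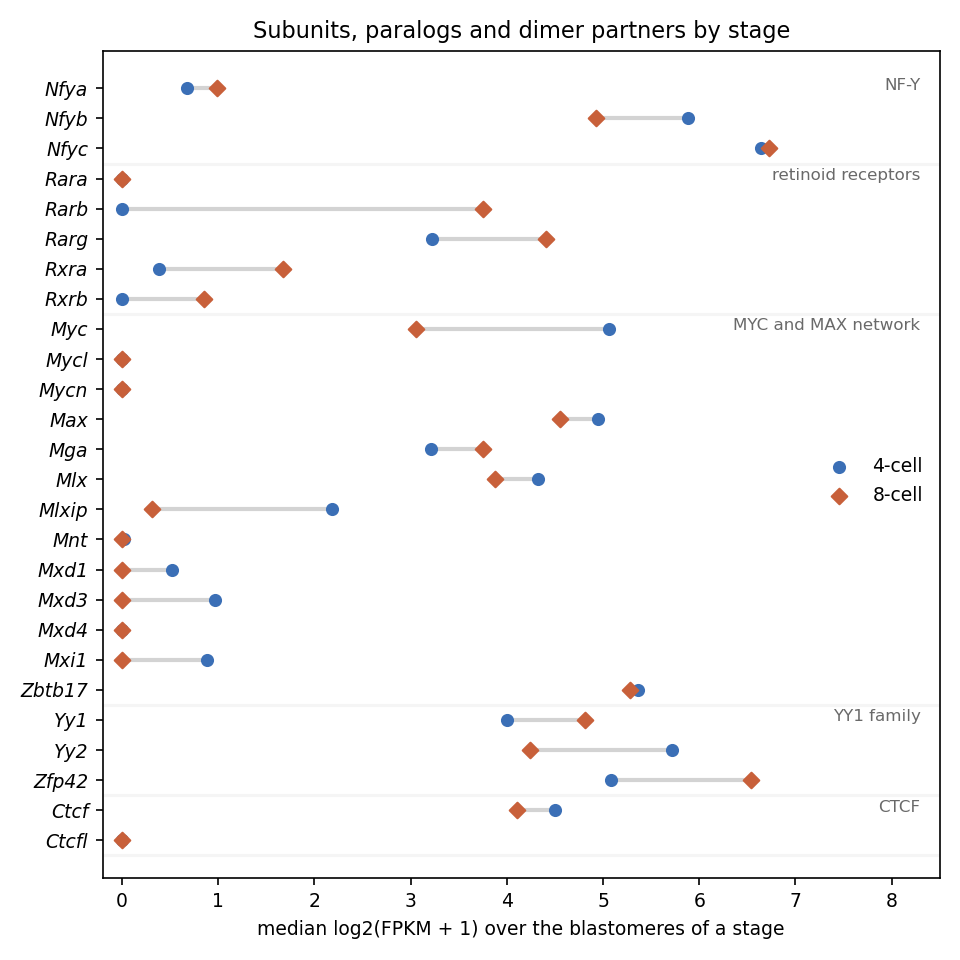
Median log2(FPKM + 1) over the blastomeres of the 4-cell stage (blue circles) and the 8-cell stage (orange diamonds) for the factors and for subunits, paralogs and dimer partners of the same families. The retinoid receptors other than Rara have 8-cell medians to the right of the 4-cell ones, Myc has its 8-cell median 2.0 to the left, and Nfya lies far below Nfyb and Nfyc.

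The NF-Y subunits were unequal. Nfyc, at chr4:120757435-120831579 on the minus strand, ran from 21.1 to 178.3 FPKM at the 4-cell stage with a median of 98.9, and from 22.5 to 234.0 FPKM at the 8-cell stage with a median of 104.8. Its log2 difference of 0.08 was the smallest in size of the 9 factors with a median above 0, and it was -0.03 without the columns S15 to S20 and -0.02 without S13 to S21. The genes of 3 miRNAs, Mir30c-1, Mir30e and Mir30f, lie within Nfyc. Nfya, at chr17:48386885-48409820 on the minus strand, had medians of 0.593 and 0.980 FPKM and highest values of 15.8 and 12.7 FPKM. It was at 0 in 6 of 24 and in 5 of 26 blastomeres, between 0 and FPKM 1 in 8 of each stage, and above FPKM 1 in 10 (41.7%, exact 95% interval 22.1% to 63.4%) and 13 (50%, 29.9% to 70.1%). The log2 difference of the Nfya medians had no settled sign, at 0.32 over all columns, -0.40 without S15 to S20, -0.96 without S13 to S21 and -0.29 without the columns named NA. Nfyc was higher than Nfya in all 24 and all 26 blastomeres. Where both were above 0, the median ratio was 38.6 over 18 blastomeres of the 4-cell stage and 101.5 over 21 of the 8-cell stage. These ratios rest on low Nfya values and ran from 2.93 to 1090 and from 3.35 to 5963.

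Nfyb, the histone-fold partner of Nfyc, had medians of 58.0 and 29.4 FPKM and was above FPKM 1 in 24 of 24 and in 24 of 26 blastomeres. Its log2 difference was -0.96. Nfyb was higher than Nfya in 24 of 24 and 24 of 26 blastomeres. In those blastomeres, and not in all 26 of the 8-cell stage, the subunit that reads the CCAAT box had the lowest level of the trimer. The subunits had low correlations, with a rho of 0.12 and -0.05 for Nfyc and Nfyb, of 0.19 and 0.08 for Nfya and Nfyb, and of -0.01 and 0.03 for Nfya and Nfyc, with the 4-cell value first. Protein was not measured. Of 5 genes of related histone-fold proteins, 4 had a median above FPKM 1 at both stages, led by Pole4, a subunit of DNA polymerase epsilon, at 275.8 and 182.1 FPKM. Dr1, a subunit of the repressor NC2, was past 2-fold lower, with medians of 27.7 and 11.2 FPKM. It was 1 of the 5, against 9.67% of all genes.

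Myc lies at chr15:61985341-61990361 on the plus strand. At the 4-cell stage it ran from 0 to 117.6 FPKM with a median of 32.4 and was above FPKM 1 in 23 of 24 blastomeres (95.8%, exact 95% interval 78.9% to 99.9%). At the 8-cell stage it ran from 0 to 46.6 FPKM with a median of 7.34 and was above FPKM 1 in 16 of 26 (61.5%, 40.6% to 79.8%). The intervals cover counting error only and take blastomeres as independent, which cells of one embryo are not. The share was 34.3 percentage points lower, and Myc was the 1 factor with a share lower by at least 25 points, against 6.81% of all genes. This cut was chosen after the data were seen, and 1 of 10 factors is near that background. The log2 difference of the medians was -2.0, or 4.01-fold, and 3.55% of all genes had a lower one. It was -1.29 without the columns named NA and -1.67 without the gene-poor blastomeres.

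The values of Myc fell into 2 separate ranges in 8-cell blastomeres. In 10 of 26 blastomeres Myc was at 0, and in the other 16 it was at 3.15 FPKM or more, with a median of 24.8 FPKM among these and nothing between. At the 4-cell stage 1 blastomere, the gene-poor S18, was at 0, and the lowest of the other 23 was 4.79 FPKM. An observed 0 allows up to 3 fragments, which is an FPKM of at most 0.536 in the shallowest of the 10 blastomeres, S57, and the median of 7.34 FPKM over all 26 stands for about 327 fragments. Of the 10, 2 were gene-poor. In units of 1000000 fragments, their denominators lay between 2.33 and 18.7 (median 17.2), and those of the other 16 between 14.4 and 21.7 with the same median. Their numbers of genes above FPKM 1 lay between 3548 and 7249 (median 6686), against 4963 and 8078 (median 6773) in the others. The 10 at 0 were S53, S56, S57, S58, S60, S63, S64 and otherwise columns named NA. The run S53 to S58, with the lowest numbers of genes above FPKM 1, thus held several of them, while its S54 and S55 had 28.4 and 37.4 FPKM of Myc. Whether the values at 0 gather in some columns was not tested. The part of depth in the values at 0 was not tested. Fragments without molecular identifiers are not independent molecules and the number of RNA molecules captured per blastomere is unknown. Among 1961 genes with 4-cell medians within 2-fold of Myc the median number of 8-cell blastomeres at 0 was 1, and 2.40% had 10 or more. Among 2868 genes with the same 8-cell level where above 0, within 2-fold, the median was 2 and 16.7% had 10 or more. The SD of log2(FPKM+1) of Myc at the 8-cell stage, 2.27, exceeded that of 94.9% of the 1834 genes with medians within 2-fold.

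**Figure D4:**
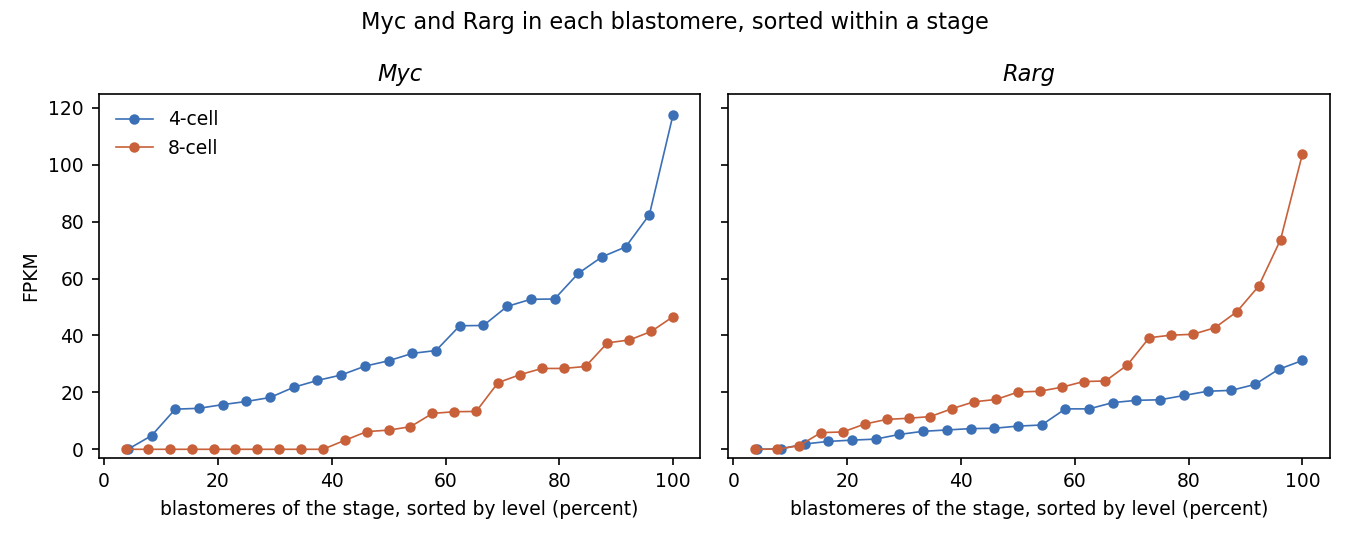
FPKM of Myc (left) and Rarg (right) in each blastomere, sorted from low to high within the 4-cell stage (blue) and the 8-cell stage (orange), with the position on the horizontal axis in percent of the stage's blastomeres. Myc stays at 0 over 10 of the 26 blastomeres of the 8-cell stage and its highest 8-cell value is 46.6, while the 8-cell curve of Rarg runs above its 4-cell curve over most of its length, to 103.7.

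Mycl, at chr4:122995588-123002490 on the plus strand, was at 0 in 17 of 24 blastomeres of the 4-cell stage and in 23 of 26 of the 8-cell stage. It was above FPKM 1 in 6 (25%, exact 95% interval 9.77% to 46.7%) and 2 (7.69%, 0.946% to 25.1%), and reached 14.8 and 23.9 FPKM. All 6 blastomeres of the 4-cell stage with Mycl above FPKM 1 also had Myc above it. The 2 of the 8-cell stage with Mycl above FPKM 1 did not have Myc above it, and 8 blastomeres had neither. With 2 blastomeres no order can be read from this. Mycn, the third paralog, was above FPKM 1 in 7 of 24 blastomeres and in 0 of 26, where its highest value was 0.0210 FPKM, and Mycs was in neither table.

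Max, the obligate partner of Myc, was above FPKM 1 in 23 of 24 and 23 of 26 blastomeres, with medians of 29.9 and 22.5 FPKM. Zbtb17, through which Myc represses genes, had medians of 40.1 and 37.8 FPKM, Mlx 19 and 13.7 FPKM, and Mga 8.24 and 12.5 FPKM. Of the 10 genes of the Max network, 1 was past 2-fold lower, against 9.67% of all genes. This was Mlxip, the partner of Mlx in glucose sensing, with medians of 3.55 and 0.243 FPKM. The antagonists Mxd1, Mxd3, Mxd4, Mxi1 and Mnt had medians under FPKM 1 at both stages. Of 12 textbook targets of Myc, 11 had a median above FPKM 1 at both stages, none was past 2-fold lower, and Cad, the enzyme that starts pyrimidine synthesis, was past 2-fold higher with medians of 5.94 and 16.6 FPKM, where 5.17% of all genes were. Both counts are near the background. The nucleolar genes Npm1, Nop56 and Nop58 had medians of 1296, 430.6 and 335.6 FPKM at the 4-cell stage and of 1551, 516.6 and 383.6 FPKM at the 8-cell stage, and the cap-binding factor Eif4e of 547.8 and 508.7 FPKM. Across blastomeres the median rho of Myc with 11 of the targets was 0.07 in 4-cell and -0.05 in 8-cell embryos, where the medians over all gene pairs were 0.05 and 0.02.

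Yy1 lies at chr12:108792945-108820148 on the plus strand. It ran from 0 to 111.9 FPKM at the 4-cell stage with a median of 15, and from 0 to 96.3 FPKM at the 8-cell stage with a median of 27.1. It was above FPKM 1 in 21 of 24 and in 25 of 26 blastomeres, and the 1 blastomere at 0 at the 8-cell stage was the gene-poor S57. The log2 difference was 0.80, with 17 of 26 blastomeres of the 8-cell stage above the 4-cell median, and it reached 1.10, past 2-fold, without the gene-poor blastomeres. The 6 highest 4-cell values, 35.8 to 111.9 FPKM, were those of the columns S15 to S20, and the other 18 were at most 26.0 FPKM. The difference was 1.02 without S15 to S20 and 1.07 without S13 to S21, past 2-fold in both, but 0.55 without the columns named NA and 0.37 as a difference of means. Yy2, a retroposed copy of Yy1, had medians of 51.7 and 17.9 FPKM, and Zfp42 (Rex1), a further copy and a marker of pluripotent cells, of 33.0 and 92.2 FPKM. Both passed 2-fold, in opposite directions, with log2 differences of -1.48 and 1.46. Over all genes 9.67% were at least 2-fold lower and 5.17% at least 2-fold higher. The copies share sequence with Yy1, and since uniquely aligned reads were counted, reads from shared stretches may be missing from any of them. Of 13 subunits of the INO80 remodeller, which works with Yy1, 12 had a median above FPKM 1 at both stages. None passed 2-fold, against 9.67% lower and 5.17% higher over all genes. The highest by 4-cell median were Ruvbl2, at 289.1 and 356.1 FPKM, and Ruvbl1, at 177.1 and 133.5 FPKM.

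Ctcf lies at chr8:105636474-105682922 on the plus strand, and 3 predicted genes overlap it. Reads on the shared stretches may be missing from its value, and where strand was not counted their gene of origin cannot be told. It ran from 0 to 51.1 FPKM at the 4-cell stage with a median of 21.6, and from 0 to 68.1 FPKM at the 8-cell stage with a median of 16.2. It was above FPKM 1 in 23 of 24 and in 23 of 26 blastomeres, and the blastomeres at 0 were the gene-poor S18 and S57. The log2 difference of -0.40 was smaller than the SD of either stage, 1.30 and 1.64, and its sign turned without the columns S15 to S20 (0.125) and S13 to S21 (0.364). Its germline paralog Ctcfl reached at most 0.725 and 0.0204 FPKM. Of 16 cohesin genes 14 were in both tables, with a median difference of -0.31. Rad21, the cleavable cohesin subunit, had medians of 79.1 and 88.1 FPKM and Stag2 of 60 and 69.4 FPKM, and Esco2, the acetyltransferase of replicated cohesin, had 191.3 and 146.6 FPKM. The 1 gene past 2-fold was Stag3, a subunit known from meiotic cohesin, with medians of 0.556 and 7.54 FPKM. It was above FPKM 1 in 12 of 24 and 21 of 26 blastomeres. Over all genes 5.17% were at least 2-fold higher, and 1 of 14 is near that share. Across blastomeres the median rho of Ctcf with the measured cohesin genes was 0.16 over 14 genes at the 4-cell stage and 0.13 over 13 genes at the 8-cell stage. The medians over all gene pairs were 0.05 and 0.02. Single values with the cohesin genes ran from -0.48 to 0.56 and from -0.08 to 0.52, with 9 of 14 and 11 of 13 above 0.

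Correlations between the factors were computed for the 9 that were above 0 in 50% or more of the blastomeres of each stage, which leaves out Mycl and gives 36 pairs. The points of a stage share embryos and library preparation, so rho values are descriptions. The 36 values of the 4-cell stage lay between -0.47 and 0.68, with a median of 0.05, and those of the 8-cell stage between -0.39 and 0.48, with a median of 0.09. Over all pairs of the 8098 and 7528 genes above 0 in 50% or more of the blastomeres the 5% and 95% limits were -0.38 and 0.47 at the 4-cell stage and -0.36 and 0.40 at the 8-cell stage.  In 18 of the 36 pairs the sign was the same at both stages, in 18 it was not, and no pair reached a rho of 0.4 at both.

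Several of the larger correlations of the 4-cell stage set the same groups of factors against each other. Yy1 and Ctcf went together, at a rho of 0.54. Both ran against Dppa2, at -0.44 and -0.47, and against Dppa4, at -0.41 and -0.43, while Nr5a2 ran against Yy1 at -0.46 and Nfyc against Ctcf at -0.46. The number of genes above FPKM 1 moved with the same groups. Its rho was -0.44 with Yy1 and -0.39 with Ctcf, and 0.49, 0.44, 0.43 and 0.32 with Dppa2, Dppa4, Nr5a2 and Nfyc. With that number held constant the rho of Yy1 and Ctcf was 0.44, that of Ctcf and Dppa2 -0.35 and that of Yy1 and Dppa2 -0.29. Its part in the pattern beyond these values was not tested. Pearson correlation of log2(FPKM+1) gave -0.28 for Ctcf and Dppa2 and -0.06 for Ctcf and Dppa4. The pattern of Yy1 with the Dppa genes rested on the columns S15 to S20, which held its 6 highest values beside Dppa2 of 201.8 to 476.3 and Dppa4 of 104.3 to 532.7 FPKM, and of which S18 and S20 were gene-poor. Without them the rho of Yy1 was 0.09 with Dppa2, 0.12 with Dppa4 and -0.26 with Nr5a2, while Yy1 and Ctcf stayed at 0.42. The rho of Ctcf was then -0.30 with Dppa2 and -0.43 with Dppa4. Without S13 to S21 the rho of Ctcf was -0.11 with Dppa2 and -0.33 with Dppa4, and Yy1 and Ctcf had 0.61. At the 8-cell stage Yy1 and Ctcf had a rho of 0.24, and the rho with Dppa2 was 0.16 for Yy1 and -0.17 for Ctcf.

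Rarg and Myc had a rho of 0.49 at the 4-cell stage and of -0.39 at the 8-cell stage. The signs held under all alternatives that were run, between 0.36 and 0.56 at the former stage and between -0.56 and -0.27 at the latter. In the latter 10 blastomeres were tied at 0 for Myc. Rarg also went with Ctcf at the 8-cell stage, at 0.48, and not at the 4-cell stage, where rho was 0.00087 below 0. Whether the correlations differed between the stages was not tested.

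**Figure D5:**
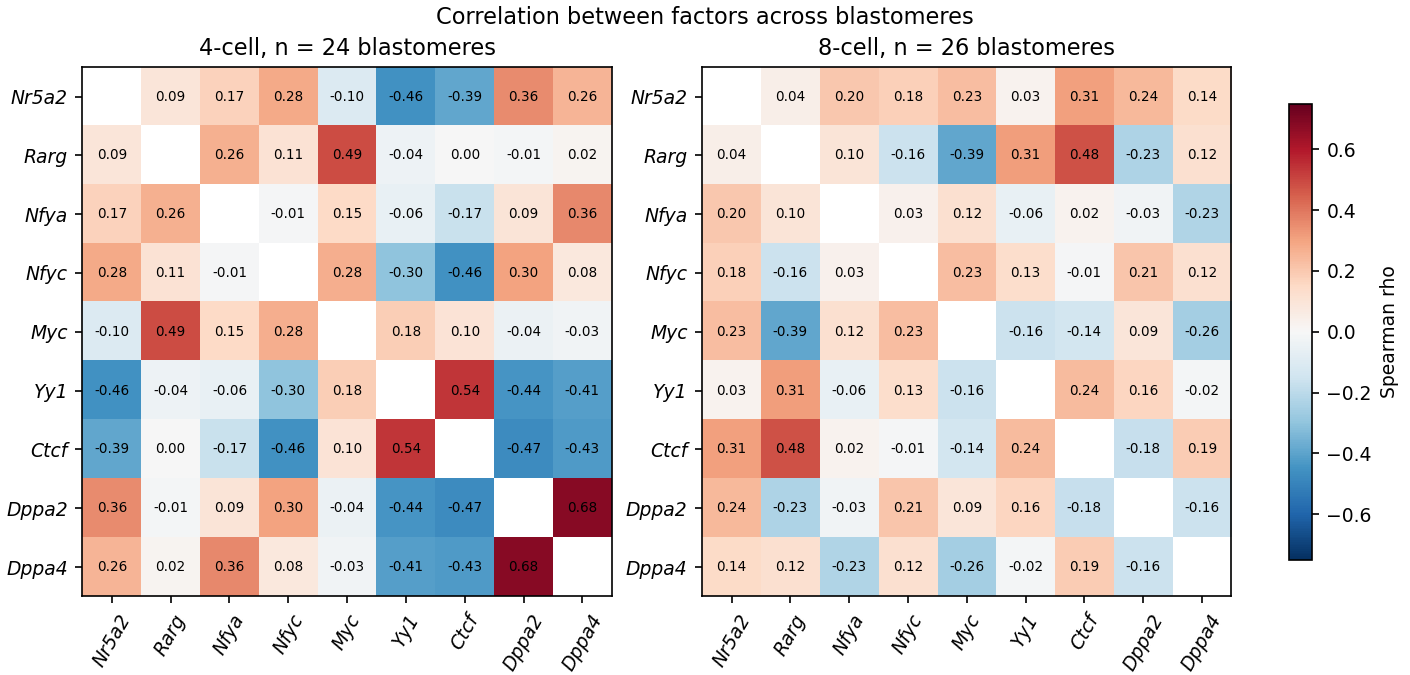
Spearman rho between each pair of 9 factors across 24 blastomeres of the 4-cell stage (left) and 26 of the 8-cell stage (right), with red above 0 and blue below 0. The 4-cell matrix has its highest value between Dppa2 and Dppa4, at 0.68, and blue cells where Yy1 and Ctcf meet Dppa2, Dppa4 and Nr5a2. The 8-cell matrix is paler.

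The genes whose levels across blastomeres were most like those of a factor were sought among 7107 genes above 0 in 50% or more of the blastomeres of each stage, by the lower of the 2 stage values of rho. For Nr5a2 these were Zfp808, with a rho of 0.63 at both stages, then Aff1, a part of the elongation machinery, and Rad18. For Rarg they were the RNA-binding genes Hnrnpl (0.60 and 0.55) and Rbm42 (0.60 and 0.54), then Anxa11. For Nfya the first was G3bp1 (0.57 and 0.66), a stress granule protein, and for Nfyc it was Bcat1 (0.56 and 0.67), an aminotransferase of branched amino acids. Myc was most like Ywhaz (0.61 and 0.52), a 14-3-3 protein, and Yy1 was most like Trim28 (0.52 and 0.50), the corepressor of KRAB zinc finger proteins. Ctcf was most like LTO1 (0.67 and 0.64), Dppa2 like Nmd3 (0.61 and 0.55), which exports the large ribosomal subunit, and Dppa4 like the ribosomal protein gene Rpl4 (0.74 and 0.67). None of the factors was among the nearest 3 of another. Each of these genes is among the highest 3 of 7106 candidates, so high values of rho can arise from the choice alone.

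Other known regulators of this period gave a scale for the factors. Of 17 such genes 16 were in both tables, 2 past 2-fold higher and 3 past 2-fold lower, where 5.17% and 9.67% of all genes were. Among the 7248 genes expressed past FPKM 1 in 50% or more of a stage's blastomeres the background was 9.71% and 18.2%, and the counts of the list are near it. Klf17, Gabpa, Klf5 and Tfap2c, the 4 with the highest 4-cell medians, had 347.5, 68.8, 63.2 and 54.1 FPKM at the 4-cell stage and 88.0, 60.5, 91.3 and 59.4 FPKM at the 8-cell stage, and Dppa2 and Dppa4 had higher medians than all of the 16 at both stages. Those past 2-fold were Gata6 (1.83) and Pou5f1 (1.39), which were higher, and Elf1 (-2.69), Klf17 (-1.97) and Nanog (-1.32), which were lower. Of 7 genes of transcription elongation, a step that Myc promotes, all had medians above FPKM 1 at both stages. Past 2-fold lower were 2 of the 7, against 9.67% of all genes and 18.2% of the 7248 expressed genes. Those 2 were Cdk9, the elongation kinase, with medians of 13.2 and 4.42 FPKM, and its inhibitor Hexim1, with 3.50 and 1.08 FPKM. Whether 2 of 7 departs from these shares was not tested, nor was a link to Myc.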

How the data were processed

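Single blastomeres were lysed and sequenced with a Nextera XT library each. The authors aligned reads with STAR (version 2.5.1b) to mm10, kept uniquely aligned reads, counted them per Refseq gene with HTSeq and deposited FPKM values for 1 table per stage, without stating the gene lengths or the total used. Reads on overlapping genes or shared between copies may be lost. Some items are not reported here. Repeat tables were not used here, and their entries could not be placed inside the factors' gene bodies. Columns were not mapped to embryo or lineage, so the planned lineage model was not run and no test was made. 5 columns of the 8-cell table are named NA and were kept.

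The factors and gene lists were chosen with earlier results of these data known, and the rule of 25 percentage points and the columns left out as runs of the 4-cell table were chosen after seeing the data. Entrez identifiers were matched to RefSeq of GRCm38.p6 (15200 of 15218 and 15320 of 15342 found). Levels are FPKM. Stage differences are differences of the medians of log2(FPKM + 1), 8-cell minus 4-cell, called from 2-fold. Shares have exact binomial intervals. Denominators were estimated from the lowest 0.3 of the values of single-transcript genes, using exon lengths of GRCm38.p6. With them, 90.8% to 96.4% of values between 0.5 and 10 fragments were within 0.1 of a whole number. The steps were tested on simulated data. For each list, genes were named by a fixed rule: up to 4 with the highest 4-cell medians, or those past 2-fold, which were chosen after their values were seen, as were list members named at or near 0. Computations used Python 3.11.15, pandas 2.3.3 and SciPy 1.17.1.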

Additional observations from a re-analysis of the deposited data

How the results depend on the processing

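No paired analysis was possible because no column name could be tied to an embryo, a lineage or a replicate number. The labels hold 24 lineage-resolved blastomeres at the 4-cell stage and 26 at the 8-cell stage, the same numbers as the columns. Whether columns can be matched to these blastomeres by their order or depth was not tested. Of 723 values recomputed under alternatives, 637 stayed within their tolerance (the exact interval of a share, 1 SD of a level or difference, 1.5 times a count, or 1 standard error of a rho of independent points), 83 moved and 3 called values changed sign. Without the gene-poor blastomeres, Myc was above FPKM 1 in 100.0% of 4-cell blastomeres, 7 factors were above FPKM 1 in the whole 4-cell stage, the factor past 2-fold higher was Yy1 (1.10) in place of Rarg (0.88), and the 8-cell rho of Rarg and Myc was -0.56. The number of factors past 2-fold higher was 0 both with means in place of medians and without the columns named NA. With Pearson correlation the 4-cell value was 0.32 for Yy1 and Ctcf and 0.49 for Dppa2 and Dppa4, and rescaling gave 0.34 for the latter. The 8-cell rho of Yy1 and Ctcf was 0.019 without both the columns named NA and the gene-poor blastomeres. Without the 4-cell columns S15 to S20, chosen after seeing the data, the 4-cell rho changed sign for Yy1 and Dppa2 (0.0918) and Yy1 and Dppa4 (0.119) and was 0.501 for Dppa2 and Dppa4. Without S13 to S21 it was 0.00357 for Yy1 and Dppa2 and 0.236 for Dppa2 and Dppa4. In both cases 2 factors were past 2-fold higher, Rarg and Yy1, and the stage differences of Nfya, Nfyc and Ctcf, none of them past 2-fold, changed sign. The causes were not tested. Among the 7248 genes above FPKM 1 in at least 50% of the blastomeres of 1 stage, 18.2% were at least 2-fold lower and 9.71% at least 2-fold higher. Myc was past 2-fold lower under all alternatives run, from -2.24 to -1.29.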
